A study of Arabidopsis thaliana with 24 samples.

Results

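*GID1A*, *SLY1* and *SPT* (SPATULA) of *Arabidopsis thaliana* are described here in seed that was dry, stratified or germinating, in the wild type and in a mutant named for a mitochondrial import protein. The genes were chosen by annotation: a probe set had to be annotated to one of these genes and to no other gene. Each gene had 1 such probe set, so 3 probe sets stand for 3 of the 13286 genes that the array could name. They are *GID1A* (AT3G05120), *SLY1* (AT4G24210) and *SPT* (AT4G36930).

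Gibberellin is the hormone that drives seed germination. It is bound by soluble receptors of the GID1 family, to which GID1A belongs. The loaded receptor binds DELLA proteins, nuclear repressors of growth, and the F-box protein SLY1 (SLEEPY1) then brings the DELLA proteins to a ubiquitin ligase for destruction. *SPT* encodes a basic helix-loop-helix (bHLH) transcription factor, known from carpel development, that also acts in the control of germination by cold and light.

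The arrays were single-colour Affymetrix arrays of total RNA from whole seed, 24 in all and 3 in each of 8 groups. The groups were Col-0 (WT) and *Attim17-1* in the Col-0 background (tim17-1) at each of 4 stages. These were dry seed (0 h), seed stratified for 48 h in darkness at 4 °C (48 h S), and stratified seed after 6 h or 24 h of continuous light at 22 °C (6 h SL, 24 h SL). For the dry seed the labels state both 14 and 15 days of after-ripening. They describe the WT seed of 0 h as freshly harvested and that of tim17-1 only as dry, so if the storage differed, it cannot be told apart from genotype at 0 h. They say neither what kind of allele *Attim17-1* is nor whether arrays of a group came from separate seed lots. The p-values thus reflect only how far these samples spread, and that spread may be technical. Each sample was made from 80 mg of seed and so pooled many seeds, and all tissues of the seed were extracted as one.

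Intensities are linear values as the authors deposited them. Changes are differences of log2(intensity + 16) with their standard error, and a change is called where limma's Benjamini-Hochberg adjusted p over all 22746 probe sets was under 0.05. A difference of 1 on this scale is close to a doubling for strong probe sets and understates the change of weak ones. Intensities of different probe sets are not compared with each other. Array medians lay between 19.63 and 36.44 and lower quartiles between 5.69 and 6.63, and no detection calls came with the values.

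Of 14 listed seed storage, oil body and late embryo genes, 3 were measured and were strong in dry seed. The oleosin gene *OLEO3* stood there at 1955 ± 123 (SD, n = 3) in WT and 2078 ± 93.5 in tim17-1, as is known of mature seed. Of 8 seed coat markers, 2 were measured, with summed intensities of 9.83 to 15.2 over all arrays. Of 6 endosperm markers, 0 were measured. A gene counted as measured only where the annotation named it for a probe set of a single gene. That annotation left 8730 of 22746 probe sets unlisted, so other listed genes may be on the array without a name. Pollen markers (3 of 11 measured) summed to 348 to 388 on the WT dry seed arrays and 40.3 to 144 on those of tim17-1, and to 12.6 to 13.9 at all later stages. Among 24 comparisons of the 3' and 5' probe sets of control transcripts between genotypes, 4 had arrays that did not overlap. Each is given with the results of its stage. Such separation of intensities was common among all probe sets. It was seen for 8.64% (tim17-1 higher) and 9.99% (tim17-1 lower) at 48 h S, and for 6.72% and 8.22% at 6 h SL. Between stages the 3' to 5' differences of the controls moved too. From 0 h to 48 h S they rose without overlap for 3 of 6 controls in WT and 5 of 6 in tim17-1, an actin control from a mean of 4.34 to 5.74 log2 units in WT and from 4.51 to 5.49 in tim17-1. At the step to 6 h SL they fell for 2 of 6 in each genotype, and at the step to 24 h SL they rose for 2 of 6 in WT and 1 of 6 in tim17-1. Their part in the steps of the genes below was not tested.

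*GID1A*, the receptor gene, was highest in dry seed and fell at every step in both genotypes. In dry seed the WT arrays read 1842, 1820 and 1814 and the tim17-1 arrays 1760, 2073 and 1898. After stratification WT read 540, 547 and 554 and tim17-1 477, 563 and 514. The genotypes overlapped at both stages, and no array of stratified seed came near the dry seed. After 6 h of light WT stood at 233, 242 and 234, below tim17-1 at 266, 310 and 326. After 24 h of light WT stood at 206, 177 and 193, again below tim17-1 at 219, 235 and 234. The genotypes did not overlap at either light stage, with tim17-1 the higher. Of all probe sets, 6.72% at 6 h SL and 8.58% at 24 h SL were separated in the same direction.

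Most of the fall in *GID1A* came before light. Stratified seed held 30% of the dry seed mean in WT and 27.1% in tim17-1. By 24 h SL the mean was 10.5% of that of dry seed in WT and 12% in tim17-1. In WT the log2 steps were -1.71 ± 0.0702 (limma, adjusted p = 1.25e-13) to 48 h S, -1.16 to 6 h SL and -0.28 (adjusted p = 0.00257) to 24 h SL. In tim17-1 they were -1.85, -0.76 (adjusted p = 7.74e-08) and -0.36 (adjusted p = 0.000276). The step from 6 to 24 h of light depended on how the arrays were scaled. With cyclic loess scaling it was -0.016 in WT (adjusted p = 0.86) and -0.17 in tim17-1 (adjusted p = 0.0613).

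Falling was common at these steps. From 0 h to 48 h S, 44.7% of all probe sets were called lower in WT and 32.9% in tim17-1. Whether falls outnumbered rises at this step depended on the processing. With cyclic loess scaling 9170 probe sets were called higher and 7300 lower in WT, and 8400 and 6501 in tim17-1. With only probe sets with a group mean over 64, WT had 5820 higher and 4675 lower. From 48 h S to 6 h SL the shares called lower were 18.4% and 19.2%, and from 6 h SL to 24 h SL they were 25.1% and 22.5%. By size, 16.3% of probe sets changed by more than *GID1A* in either direction at the WT step from dry seed, 6.08% at the WT step to 6 h SL and 41.3% at the last WT step. In tim17-1 these shares were 14.8%, 12.7% and 35%. In whole seed, a smaller share of cells with the transcript and less transcript per cell cannot be told apart.

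*SLY1*, the F-box gene, rose during stratification and came down again after 24 h of light. Dry WT seed read 58.3, 66.2 and 63.0, and dry tim17-1 seed 65.5, 96.8 and 89.7. After stratification WT read 507, 501 and 518, and tim17-1 554, 575 and 551. Every stratified array thus stood far above every dry one, and the tim17-1 arrays at 48 h S lay above those of WT. The 3' to 5' log2 differences of 2 controls also separated the genotypes at 48 h S. An actin control stood at 5.67 to 5.77 in WT and 5.39 to 5.60 in tim17-1, and a ubiquitin control at 1.43 to 1.48 and 1.56 to 1.76. Their part in the genotype differences at 48 h S was not tested. At 6 h SL the WT arrays read 479, 521 and 465 and the tim17-1 arrays 556, 476 and 568, which overlap each other and those of 48 h S of the same genotype. At 24 h SL WT had come down to 221, 242 and 228 and tim17-1 to 255, 257 and 310, with no overlap between the genotypes.

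The ratio of mean *SLY1* intensities between stratified and dry seed was 8.14 in WT and 6.67 in tim17-1. The log2 steps were 2.74 ± 0.0973 (limma, adjusted p = 1.48e-14) and 2.54 (adjusted p = 4.27e-14). Over all probe sets, 28.4% were called higher at this step in WT and 26.8% in tim17-1, and 6.77% and 8.33% changed by more than *SLY1*. From 48 h S to 6 h SL no change was called, at -0.06 (95% interval -0.26 to 0.15) in WT and -0.07 (-0.28 to 0.13) in tim17-1. From 6 h SL to 24 h SL *SLY1* fell by 1.03 ± 0.0973 in WT (adjusted p = 5.26e-08) and by 0.92 in tim17-1 (adjusted p = 2.45e-07). The means at 24 h SL were 45.3% and 48.9% of those at 48 h S, and still 3.69 and 3.26 times those of dry seed.

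*SPT*, the bHLH gene, rose at every step in both genotypes. It was weak in dry seed, at 14.3, 16.9 and 17.5 in WT and 18.9, 11.8 and 17.0 in tim17-1. After stratification it read 243, 253 and 245 in WT and 229, 240 and 221 in tim17-1. At 48 h S the lowest WT array lay just above the highest tim17-1 array. At 6 h SL WT read 462, 542 and 516 and tim17-1 388, 500 and 422. At 24 h SL WT read 640, 713 and 631 and tim17-1 615, 647 and 538. The genotypes overlapped at both light stages.

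Between dry and stratified seed the *SPT* mean rose from 16.2 ± 1.68 (SD, n = 3) to 247 ± 4.88 in WT and from 15.9 ± 3.69 to 230.1 ± 9.78 in tim17-1. The log2 steps were 3.03 ± 0.0938 (limma, adjusted p = 2.09e-15) and 2.95 (adjusted p = 2.83e-15). The dry seed arrays, at 11.8 to 18.9, lay below the lowest array median of 19.63 and are not shown to be above background, so no fold is given for this step, and its log2 value depends on the offset of 16. Light brought a further 0.99 (adjusted p = 9.7e-08) in WT and 0.87 (adjusted p = 4.88e-07) in tim17-1 by 6 h. The last step added 0.37 (adjusted p = 0.0027) and 0.45 (adjusted p = 0.000598). Shares called higher over all probe sets were 19.4% and 18.9% at the step to 6 h SL, and 20.5% and 20.7% at the step to 24 h SL. Stratified seed held 37.4% of the 24 h SL mean in WT and 38.4% in tim17-1, so the larger part of the linear rise in intensity came in the light.

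**Figure D1:**
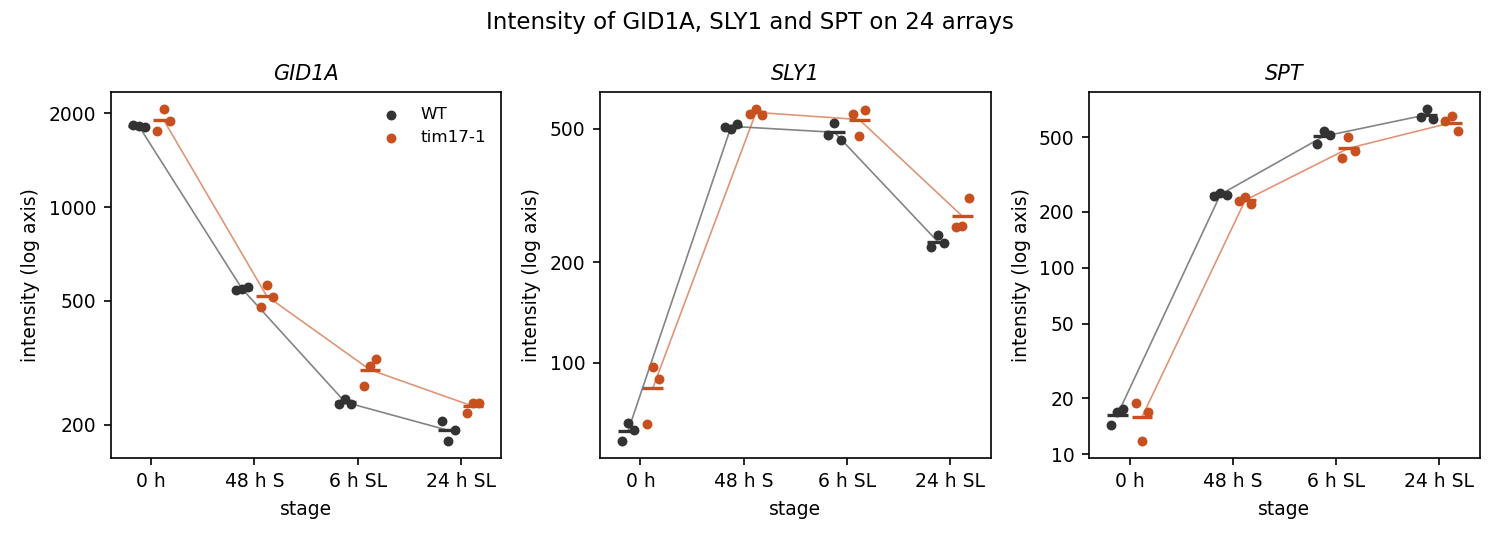
Deposited intensity (log axis) of *GID1A*, *SLY1* and *SPT* at 4 stages. Points are single arrays, 3 per group, bars are group means, and lines join the means of WT (dark) and tim17-1 (orange). *GID1A* runs from 1825 down to 192 in WT, *SLY1* peaks at 509 at 48 h S, and *SPT* climbs from 16.2 to 661.

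The order of the 8 groups differed between the genes. For *GID1A* it ran from tim17-1 0 h through WT 0 h, WT 48 h S, tim17-1 48 h S, tim17-1 6 h SL, WT 6 h SL and tim17-1 24 h SL to WT 24 h SL. Neighbours whose arrays overlapped were the pair at 0 h, the pair at 48 h S, and WT 6 h SL with tim17-1 24 h SL. For *SLY1* the groups of 48 h S and 6 h SL stood first and each overlapped its neighbour in rank. They were followed by tim17-1 24 h SL, WT 24 h SL, tim17-1 0 h and WT 0 h, of which the last pair overlapped. For *SPT* the order followed the stages from 24 h SL back to 0 h, with WT above tim17-1 at each. All neighbours from WT 24 h SL down to tim17-1 6 h SL overlapped, as did the pair at 0 h. The groups at 48 h S overlapped no neighbour.

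Stage carried nearly all of the differences between group means. Of the sum of squares among the 8 means of log2(intensity + 16), stage took 99.2% for *GID1A*, 98.9% for *SLY1* and 99.8% for *SPT*. The mean difference between the genotypes took 0.325%, 0.919% and 0.119%. What was left took 0.426%, 0.164% and 0.0414%. It holds any genotype difference that varies with stage together with the scatter of the arrays. These shares describe the means and are not tests.

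Differences between tim17-1 and WT were small beside the steps between stages, at most 0.34 log2 units for these genes. Of the 3 genes, 1 was called at 6 h SL (*GID1A*, higher in tim17-1), and none in limma's fit at 0 h, 48 h S or 24 h SL. At an unadjusted p under 0.05 the counts at those 3 stages were 1 (*SLY1*), 0 and 2 (*GID1A* and *SLY1*), where 14.4%, 12.2% and 13.6% of all probe sets passed. At the adjusted threshold, 3.65% of all probe sets were called at 0 h, 1.23% at 48 h S, 1.28% at 6 h SL and 4.32% at 24 h SL, in either direction. Averaged over the stages, *GID1A* and *SLY1* were called higher in tim17-1, where 1.11% of all probe sets were called higher and 3.08% lower. The 3 genes were chosen with these calls known, so the counts are no independent evidence.

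*GID1A* at 6 h SL stood at 236 ± 4.94 (SD, n = 3) in WT and 300.4 ± 31.1 in tim17-1. The ratio of means was 1.27 and the log2 difference 0.32 ± 0.0702 (limma, adjusted p = 0.0304), with a 95% interval of 0.17 to 0.47. All 3 tim17-1 arrays lay above all 3 WT arrays, as they did in the same direction for 6.72% of probe sets. The call was lost when only the 6 h SL arrays were fitted (adjusted p = 0.306). Leaving out a single array also ended it in 4 of 6 cases. These were the first WT array (0.31, adjusted p = 0.117), the third WT array (0.31, at 0.11), the second tim17-1 array (0.30, at 0.121) and the third tim17-1 array (0.26, at 0.141). The 3' to 5' log2 difference of a GAPDH control was -0.21 to -0.13 on the WT arrays of this stage and -0.07 to 0.06 on those of tim17-1. Its part in the result was not tested.

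At 24 h SL *GID1A* was measured at 192 ± 14.4 in WT and 229 ± 8.98 in tim17-1, a difference of 0.24 ± 0.0702 that was not called (adjusted p = 0.0656; 95% interval 0.09 to 0.39). At 0 h the difference was 0.06 (-0.09 to 0.21) and at 48 h S -0.08 (-0.23 to 0.07). With array weights the difference at 48 h S was -0.16 and was called (adjusted p = 0.0373). The average over the stages was 0.14 ± 0.0351 (adjusted p = 0.0346). Leaving out 1 array ended this call in 15 of 24 cases, at 0.12 to 0.14 and adjusted p = 0.0501 to 0.0642. In WT these were the second and the third arrays at 0 h, every array at 48 h S, the first and the third at 6 h SL and the second at 24 h SL. In tim17-1 they were the second array at 0 h and the second and the third at each later stage.

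*SLY1* was higher in tim17-1 by 0.21 ± 0.0486 in the average over the stages (limma, adjusted p = 0.0211; 95% interval 0.10 to 0.31), which corresponds to a factor of 1.15. None of its single stages passed. Dry seed showed the largest difference, 62.5 ± 3.97 in WT against 84.0 ± 16.4 in tim17-1 (0.34 ± 0.0973, adjusted p = 0.0686), and the arrays overlapped. Without tim17-1 0 h replicate 1, the lowest of its group, the difference was 0.48 and was called (adjusted p = 0.00144), and with log2(intensity + 1) it was 0.40 (adjusted p = 0.0439). At 48 h S the difference was 0.13 (adjusted p = 0.629), at 6 h SL 0.12 (adjusted p = 1) and at 24 h SL 0.23 (adjusted p = 0.274). The arrays of the genotypes did not overlap at 48 h S and 24 h SL, with tim17-1 higher, as for 8.64% and 8.58% of probe sets. Averaged over the 3 imbibed stages only, the difference was 0.16 and no longer passed (adjusted p = 0.159).

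Dry seed was also where pollen markers differed. All 3 measured pollen genes were called lower in tim17-1 (*AT3G62710* -1.90, *AT4G02250* -1.86 and *AT3G05610* -1.84). At this stage 3.65% of all probe sets were called in either direction. The lists were picked with earlier results of these data known, so this count is no independent evidence. The 3' to 5' log2 difference of a ubiquitin control was -0.23 to -0.18 in WT and -0.41 to -0.30 in tim17-1. The part of the pollen signal and of this control in the *SLY1* average, which includes dry seed, was not tested. At the other stages the measured pollen markers were near the lowest intensities. The *SLY1* differences of those stages, 0.12 to 0.23, were not called, and whether pollen bears on them was not tested.

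*SPT* was lower in tim17-1 at all 4 stages, but no stage passed. The differences were -0.02 (95% interval -0.22 to 0.18) at 0 h, -0.10 (-0.29 to 0.10) at 48 h S, -0.21 (-0.41 to -0.01) at 6 h SL and -0.14 (-0.34 to 0.06) at 24 h SL. In the average it was -0.12 ± 0.0469 (limma, adjusted p = 0.218; 95% interval -0.22 to -0.02). The arrays did not overlap at 48 h S, where WT was higher, as was the case in that direction for 9.99% of probe sets. In dry seed the sign turned with quantile normalization (0.015).

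**Figure D2:**
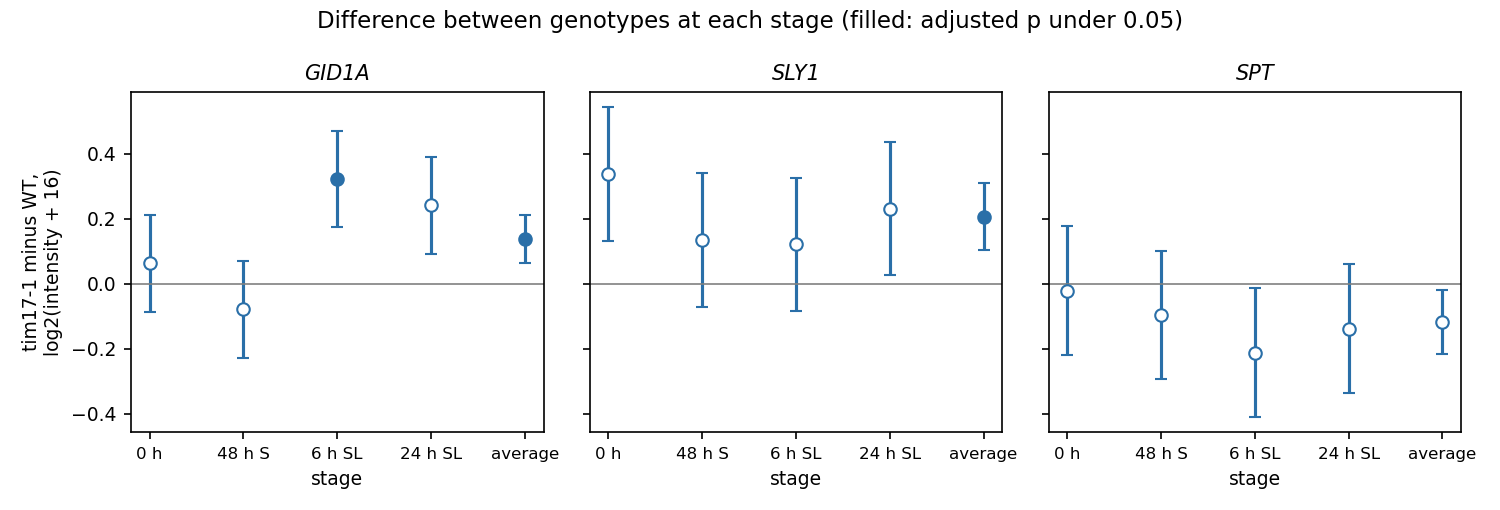
Difference tim17-1 minus WT in log2(intensity + 16) at each stage and in the average of the 4 stages, for *GID1A*, *SLY1* and *SPT*. Points are limma estimates from 3 arrays per group, bars are 95% intervals, and filled points have an adjusted p under 0.05. *GID1A* at 6 h SL (0.32) and the averages of *GID1A* (0.14) and *SLY1* (0.21) are filled.

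No step of the 3 genes was called different between the genotypes, where 2.68%, 0.717% and 1.53% of all probe sets were called at the successive steps. At an unadjusted p under 0.05 the limma counts were 0, 1 and 0 of 3 genes, against 16.3%, 9.29% and 9.62% of all probe sets. The nearest was the fall of *GID1A* from 48 h S to 6 h SL, which was smaller in tim17-1 by 0.40 ± 0.0993 (limma, adjusted p = 0.0749; 95% interval 0.19 to 0.61). Array weights gave a call (0.52, adjusted p = 0.000708), and so did leaving out the first tim17-1 array of 6 h SL (0.48, adjusted p = 0.0294). For *SLY1* the rise from dry to stratified seed differed by -0.20 (95% interval -0.49 to 0.09). For *SPT* the 3 step differences were -0.08, -0.12 and 0.07, with intervals that all included 0.

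The other genes of the pathway came from lists of names that were measured only in part. Of 12 listed receptor, DELLA, F-box and modifier genes, 7 were measured, *GID1A* and *SLY1* among them, and of 12 *SPT* relatives 2 were measured, *SPT* and *ALC*. The DELLA genes and the listed genes of gibberellin synthesis, gibberellin inactivation, gibberellin response and abscisic acid were not analysed here.

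Whether the other receptor genes share the level pattern of *GID1A* could be followed only in part. *GID1C* also dropped after dry seed, from 172 ± 43.8 (SD, n = 3) to 16.3 ± 2.66 in WT and from 131 ± 28.9 to 13.7 ± 0.978 in tim17-1 (limma, -2.52 and -2.29, adjusted p = 8.24e-11 and 3.26e-10). It then stayed low, and no WT step in the light was called. The WT means, 16.3 at 48 h S, 15.1 at 6 h SL and 12.4 at 24 h SL, lay below the lowest array median of 19.63. A further fall like that of *GID1A* could thus have been missed. In tim17-1 *GID1C* rose by 0.43 ± 0.16 to 6 h SL (adjusted p = 0.0416), from 13.6, 14.7 and 12.8 to 17.7, 26.6 and 28.8. That call was lost with an offset of 64, with cyclic loess or quantile scaling, and without any tim17-1 array of either stage other than 6 h SL replicate 1. *GID1B* lay between 4.76 and 5.98 on every array, near the lower quartile of the arrays, so this probe set gave no usable level.

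*SLY2* (also SNEEZY), the closest relative of *SLY1* and likewise an F-box gene, lay between 3.25 and 4.01 on every array and gave no usable level either. *SPY* and *SEC* encode related enzymes that attach sugars to DELLA proteins, a fucose by SPY and an N-acetylglucosamine by SEC. Both fell stepwise like *GID1A* but over a narrower range. *SPY* went from 824 ± 73.6 in dry WT seed through 460 ± 17.4 and 423 ± 41.6 to 301 ± 4.19 at 24 h SL. *SEC* went from 710 ± 31.4 through 370 ± 26.2 and 275 ± 25.1 to 206 ± 15.4. Of their 12 steps, all were called lower but the *SPY* step from 48 h S to 6 h SL in WT (-0.12, adjusted p = 0.167). Among all probe sets, 44.7%, 18.4% and 25.1% were called lower at the successive WT steps. In tim17-1 these shares were 32.9%, 19.2% and 22.5%. With cyclic loess scaling the steps from 6 h SL to 24 h SL were no longer called for *SEC* in either genotype (-0.13 and -0.16) or for *SPY* in tim17-1 (-0.07).

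*SPY* was the other gene of the gibberellin list with a genotype call. It was higher in tim17-1 at 24 h SL, at 365 ± 14.7 (SD, n = 3) against 301 ± 4.19 (0.26 ± 0.0614, limma, adjusted p = 0.0173), and in the average by 0.16 ± 0.0307 (adjusted p = 0.00504). The call at 24 h SL was lost without WT replicate 1 or 2 or tim17-1 replicate 1 or 3 (adjusted p = 0.0546 to 0.0779), with cyclic loess (0.21, adjusted p = 0.0583) and with the arrays of that stage alone (adjusted p = 0.136). *SEC* was not called at any stage or in the average (0.11, adjusted p = 0.177), nor was *GID1C* (0.02, adjusted p = 0.952).

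Of the 7 measured gibberellin genes, 3 (*GID1A*, *SLY1* and *SPY*) were thus called higher in tim17-1 in the average and 0 lower. Among all probe sets, 1.11% were called higher and 3.08% lower. *GID1A* and *SLY1* were chosen with these calls known, so this count is no independent evidence. The 7 include *GID1B* and *SLY2*, which gave no usable level. The median difference of the 7 genes was 0.11, against 0.002 over all probe sets. Many of all probe sets were weak (array medians 19.63 to 36.44), and the scale used understates the changes of weak probe sets. Medians over all probe sets, here and below, are thus no like comparison for these genes. At 6 h SL 1 of 7 was higher with a median of 0.12 (1.28% of all probe sets called), and at 24 h SL 1 of 7 with a median of 0.18 (4.32% called). At 0 h and 48 h S none passed in limma's fit (3 and 1 at an unadjusted p under 0.05, which 14.4% and 12.2% of all probe sets passed), with medians of 0.03 and 0.01. From dry to stratified seed 1 of 7 rose (*SLY1*) and 5 fell in each genotype, with medians of -0.82 in WT and -0.81 in tim17-1 against -0.03 and -0.02 over all probe sets. In WT 28.4% of all probe sets were called higher and 44.7% lower at this step, and in tim17-1 26.8% and 32.9%. Those 5 include *SLY2* in WT (-0.03) and *GID1B* in tim17-1 (-0.04), changes of probe sets without a usable level that cyclic loess scaling turned to 0.06 and 0.0062.

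*ALC* (ALCATRAZ), the bHLH gene closest to *SPT* and known from fruit opening, also rose, with calls only in the light. It stood at 11.3 ± 4.16 (SD, n = 3) in dry WT seed, 10.6 ± 1.82 after stratification, 36.5 ± 3.19 at 6 h SL and 197 ± 26.4 at 24 h SL. In tim17-1 the same stages gave 10.3 ± 0.288, 12.3 ± 0.513, 27.2 ± 3.63 and 218 ± 19.3. The step to 48 h S was not called in either genotype (limma, -0.03 and 0.10). Every array of 0 h and 48 h S lay below the lowest array median of 19.63, so a small rise could have been missed there. The steps to 6 h SL (0.98 and 0.61) and 24 h SL (2.01 and 2.44) were called in both. Over all probe sets, 19.4% in WT and 18.9% in tim17-1 were called higher at the step to 6 h SL, and 20.5% and 20.7% at the step to 24 h SL. At 6 h SL the tim17-1 arrays lay below those of WT without overlap, in a direction shared by 8.22% of probe sets, and the difference of -0.28 ± 0.102 was not called (adjusted p = 0.308).

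**Figure D3:**
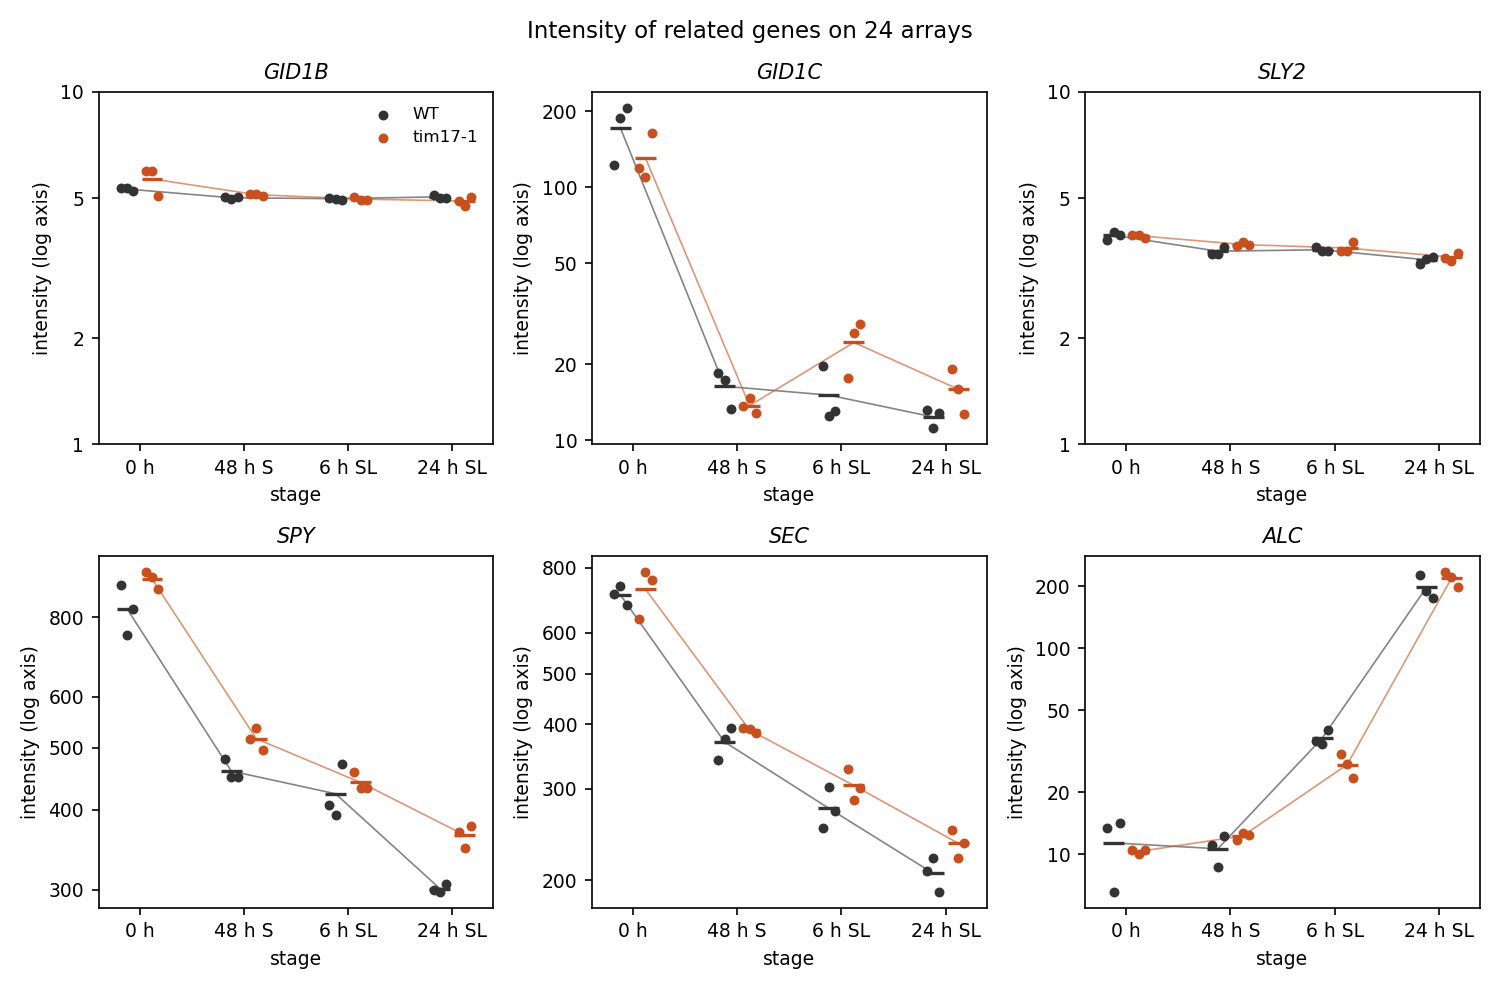
Deposited intensity (log axis, with its own range in each panel) of the receptor genes *GID1B* and *GID1C*, the F-box gene *SLY2*, the modifier genes *SPY* and *SEC* and the bHLH gene *ALC* at 4 stages. Points are single arrays, bars are means of 3 arrays, and lines join the means of WT (dark) and tim17-1 (orange). *GID1B* and *SLY2* stay under an intensity of 6 throughout, and *ALC* rises to 197 in WT only in the light.

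Set side by side as log2 changes from dry seed, *GID1A* and *SPT* moved in opposite directions. In WT *GID1A* stood at -1.71, -2.87 and -3.15 at the 3 later stages and *SPT* at 3.03, 4.02 and 4.39. In tim17-1 *GID1A* stood at -1.85, -2.61 and -2.97 and *SPT* at 2.95, 3.83 and 4.28. The size of the *SPT* values depends on the offset, as its dry seed level is not shown to be above background. In WT at 48 h S *SPT* stood at 3.85 with an offset of 1 and at 1.96 with 64. *GID1A* stood there at -1.74 and -1.63. Over the 8 group means the Pearson correlation between both genes was -0.992. It was 0.79 between *SLY1* and *SPT* and -0.722 between *GID1A* and *SLY1*. *GID1A* correlated with *SEC* at 0.991 and with *SPY* at 0.971. These values describe 8 means that fall into 4 stages, and the step out of dry seed dominates them.

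Many genes follow such profiles. Among 5377 candidate genes with a group mean over 64 and a range of at least 1 log2 unit, 705 correlated with *GID1A* at over 0.95, 751 with *SPT* and 399 with *SLY1*. Opposite profiles were common too, with 626 genes under -0.95 for *GID1A*, 927 for *SPT* and 148 for *SLY1*. The genes most like *GID1A* were *AT2G47350* (Pearson 0.999), *AT1G26400*, *AT4G03410*, *AT3G05640* and *AT5G13810* (0.998 each). *AT5G13810* went from 850 ± 79.6 (SD, n = 3) in dry WT seed through 280 ± 12.7 and 154 ± 23.3 to 123 ± 4.49.

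Those most like *SLY1* were *AT4G27250* and *AT3G20240* (0.998 each) and *AT5G26180*, *AT2G03780* and *AT5G10290* (0.995 each). *AT3G20240* went from 32.4 ± 11.3 (SD, n = 3) in dry WT seed to 480 ± 63.8, stayed at 475 ± 29 and came down to 206 ± 9.61. Those most like *SPT* were *LSMT-L* (0.9995), *PCME* (0.9994), *AT1G51570* (0.9993), *AT4G12060* (0.9988) and *AT5G42320* (0.9986). *PCME* went from 10.3 ± 2.67 through 249 ± 16.4 and 552 ± 36.7 to 784 ± 88.6.

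**Figure D4:**
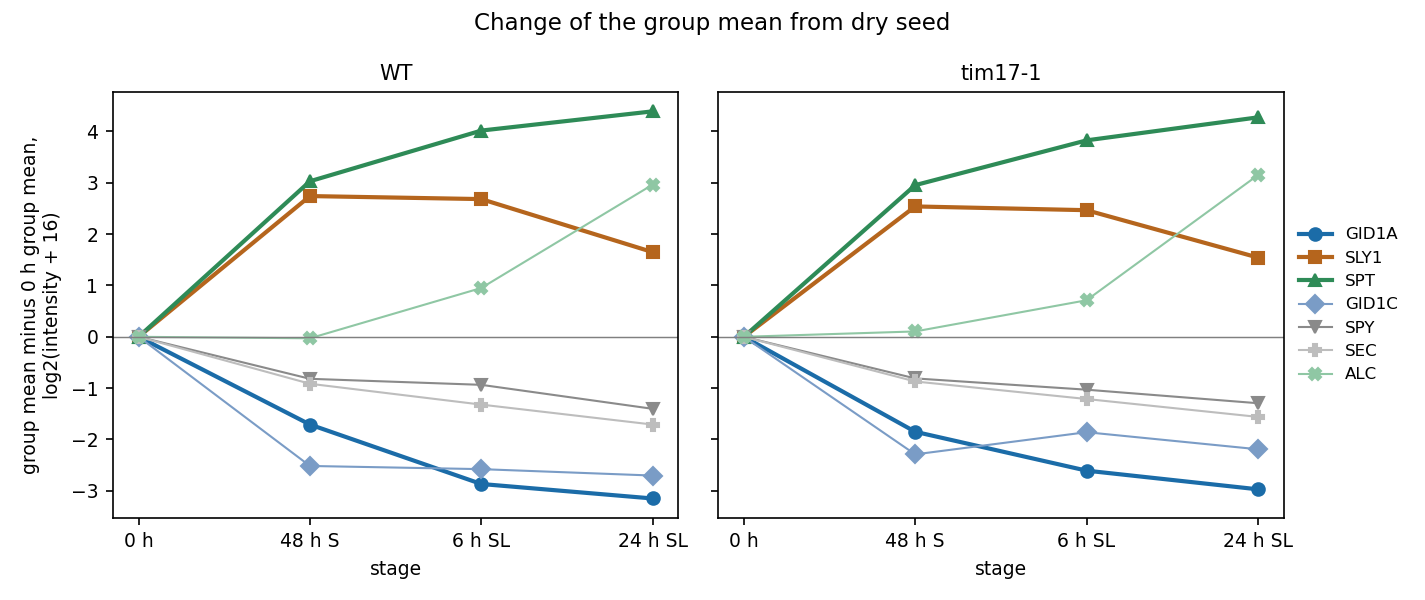
Group mean of log2(intensity + 16) minus that of dry seed of the same genotype, at 4 stages, for WT (left) and tim17-1 (right). Each line is a gene with usable levels at some of the stages and each point a mean of 3 arrays. *SPT* and *ALC* in dry seed, *ALC* at 48 h S and *GID1C* after dry seed were weak. The size of their changes depends on the offset of 16. *SPT* reaches 4.39 in WT and *GID1A* -3.15 at 24 h SL, while *SLY1* passes from 2.74 at 48 h S to 1.65.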

How the data were processed

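Per the labels' protocols, 400 ng of total RNA from each of the 24 seed samples was biotin-labelled for an Affymetrix array. The authors deposited 1 linear intensity value per probe set and array. MAS5, RMA and Partek are named in the submitters' processing notes, without versions or roles, so the background correction and the scaling between arrays are not given in the sources used here. Upper quartiles ran from 234.2 to 258. The 3 arrays per group limit the precision.

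The values were used as deposited, without 64 control probe sets. Gene names came from a platform annotation, matched by gene identifier to assembly TAIR10.1. Of 22746 probe sets, 13513 carried a single gene, 503 carried more than 1 and stayed unnamed, and 8730 were not listed. Values were transformed as log2(value + 16), and 1 limma model (version 3.58.1, R 4.3.3) of 8 group means was fitted over the 24 arrays, with adjustment over all probe sets. On simulated data with 200 of 22746 probe sets changed, 28.4% to 100% of shifts by 0.5 log2 units and 86.6% to 100% of shifts by 1 were called over 14 comparisons. With 3 arrays a group, the smallest exact permutation p is 0.1, so no such test was run.

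The genes named were the 3 chosen ones, every measured gene of the gibberellin, *SPT* and abscisic acid lists, and the 5 genes with the most similar group means to each chosen gene. The chosen genes, lists and tests were picked with earlier results of these data known. Replicate numbers of the titles did not pair the arrays: over 84 pairs of same-numbered arrays the deviations from the group means correlated at -0.26 to 0.17, with a median of -0.0049. Promoter and protein sequences were not used here.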

Additional observations from a re-analysis of the deposited data

How the results depend on the processing

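The 42 values of *GID1A*, *SLY1* and *SPT* (each gene in 14 comparisons) were recomputed 696 times under the alternatives. Of these, 657 kept direction and side of the threshold, 23 lost the call, 6 gained one and 10 changed sign, all of them of values that were not called. The replicate block changed no call of the 3 genes (*GID1A* at 6 h SL 0.32, average 0.14) and lost only the *GID1C* rise in tim17-1 from 48 h S to 6 h SL (0.43, adjusted p = 0.055). Each of the 3 genes has 1 probe set annotated to it alone, so no other such probe set could be tried.

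Calls of *GID1A* were lost with cyclic loess (24 h SL minus 6 h SL, WT -0.016 and tim17-1 -0.17) and with the arrays of 6 h SL alone (0.32). They were gained with array weights (48 h S -0.16, step difference 48 h S to 6 h SL 0.52). *SLY1* gained one at 0 h with log2(value + 1) (0.40) and with weak probe sets left out (0.34, adjusted p = 0.0498), and lost its average without dry seed (0.16). The sign of *SPT* turned with cyclic loess for the step differences to 48 h S (0.024) and to 24 h SL (-0.0069), and with quantile normalization at 0 h (0.015). *SLY2* and *GID1B* turned with cyclic loess (0.062 and 0.0062, dry to stratified seed). The cause of these changes was not tested.

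Leaving out 1 array at a time gave 0.26 to 0.40 for *GID1A* at 6 h SL, 0.12 to 0.16 for its average and 0.34 to 0.48 for its step difference to 6 h SL. It gave 0.24 to 0.48 for *SLY1* at 0 h, -0.12 to 0.0044 for its tim17-1 step to 6 h SL and -0.061 to 0.063 for that step difference. It gave -0.090 to 0.075 for *SPT* at 0 h and -0.0049 to 0.17 for its step difference to 24 h SL.

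Counts of called probe sets moved by over 1.5 times in 35 of 232 recomputations. They ran from 39 to 1176 at 0 h (831 as reported), 101 to 4106 at 48 h S (280), 0 (limma; 2165 at an unadjusted p under 0.05) to 847 at 6 h SL (291) and 4 to 1306 at 24 h SL (983), where the lowest came mostly from fitting 1 stage alone and the highest mostly from array weights. For the step differences they ran from 330 to 933 (610), 63 to 1711 (163) and 62 to 830 (349), and for the WT step out of dry seed from 10495 to 17285 (16625). Cyclic loess moved the share of calls that were higher from 29.3% to 43.3% at 48 h S, 39.9% to 50.8% at 6 h SL and 36.8% to 25.1% at 24 h SL. At the step out of dry seed it moved from 38.9% to 55.7% in WT and from 44.9% to 56.4% in tim17-1, and for the step differences from 57.2% to 73.2% and from 26.1% to 15.5%. Weak levels (*SPT* in dry seed, *ALC* in dry seed and at 48 h S, *GID1C* after dry seed) are limited by the unknown background.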
